A study of Mus musculus with 8 samples.

Results

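Alveolar type 2 (AT2) cells make pulmonary surfactant, and 10 genes of that program were followed here in bulk RNA-seq libraries of sorted lung cells: Sftpa1, Sftpb, Sftpc, Sftpd, Abca3, Lamp3, Slc34a2, Napsa, Lpcat1 and Sfta2. They were chosen by name, as genes long used to mark AT2 cells, from the 27179 genes of the count table, and all 10 passed the filter on low counts. The cells came from lungs of female C57BL/6J mice (strain C57BL/6, genotype Eml4-Alk translocation in the labels), in which intratracheal adenovirus expressing Cas9 and guide RNAs had rearranged Eml4 and Alk in the cells it edited, at 18 to 22 weeks of age and 11 to 12 weeks after tumor induction. Every mouse had received 4.5 nmol of QZ1-(PEG2K), a quenched peptide probe whose Cy5 fluorescence appears after protease cleavage, by tail vein 2 h before the lungs were removed. Live cells were gated as negative for CD45 and CD11b, to leave out blood cells. They were sorted by gating QZ1 against EpCAM into a population with high probe signal (QZ1-hi, 4 libraries) and one with low signal (QZ1-lo, 4 libraries). At least 100000 cells were collected per population. Both populations therefore came from tumor-bearing lungs exposed to the virus and the probe, the share of cells in each that carried the rearrangement was not measured here, no library from a healthy lung was analysed here, and the methods state that the purity of the fractions was not directly assessed. The comparison asks how surfactant gene expression differed between cells with high and low probe signal.

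Surfactant is a film of lipid and protein that lowers surface tension at the air-liquid interface of the alveolus. AT2 cells assemble its phospholipids and the hydrophobic proteins SP-B and SP-C in lamellar bodies, lysosome-related organelles that are emptied into the airspace, whereas the collectins SP-A and SP-D bind microbes and take part in innate defense. Several of these genes are not private to AT2 cells: club cells of the airway are known to express Sftpa1, Sftpb and Sftpd, and mature dendritic cells express Lamp3. The transcription factors Nkx2-1, Foxa1, Foxa2, Cebpa, Etv5, Gata6 and Klf5 are known to act on surfactant gene expression in the distal lung.

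Total counts ranged from 18380918 to 26847938 per library. Mitochondrial genes took up 43.7 to 65.6% of the counts in QZ1-hi and 34.0 to 53.2% in QZ1-lo, which left 8749446 to 16389316 counts per library outside mitochondrial genes and ribosomal RNA. Levels are given as CPM, each library's counts scaled to a common size with TMM in edgeR (factors from 0.660 to 1.35), and a level of 3 counts corresponded to 0.0894 to 0.179 CPM, a floor that covers counting error only because reads are not independent molecules. The lowest count of any of the 10 genes in any library was 113, so none was limited by this floor. Log2 fold changes, positive where QZ1-hi was higher, come from edgeR's quasi-likelihood test over 15583 genes, each with its standard error (SE), and a gene was called at a Benjamini-Hochberg adjusted p below 0.05. Library numbers only name the libraries and pair none of them. The labels do not say whether the libraries of a population came from separate mice, so the p-values measure the spread between these libraries.

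Of the 10 AT2 genes, 2 rose in QZ1-hi, Sftpc and Slc34a2, none fell, and 8 did not pass the threshold. Among all genes tested, 9.88% were called higher and 8.21% lower. By unadjusted p, 5 of the 10 lay below 0.05 (Sftpc, Slc34a2, Lamp3, Abca3 and, in the lower direction, Sftpd), as did 28.9% of all genes tested, in either direction. The 10 genes had a median log2 fold change of 0.33, with 9 above 0 and 1 below, beside a median of 0.02 over all genes tested. This direction depended on the scaling. With counts scaled by total library size alone, mitochondrial counts included, no AT2 gene was called higher and Sftpd was called lower. The medians were then -0.08 for the 10 genes and -0.44 for all genes, and only Sftpc and Slc34a2 kept a value above 0. With mitochondrial and ribosomal RNA genes removed before scaling by library size, Sftpc (0.72, edgeR adjusted p = 0.0244) and Slc34a2 (0.82, adjusted p = 0.0197) were called higher. No AT2 gene was called lower in that setting, only Sftpa1 turned its sign (-0.03), and the median of all genes was -0.03. Measured from the median of all genes, the values moved little between TMM and total library size. Sftpc was at 0.75 and 0.81, Slc34a2 at 0.86 and 0.91, Sftpa1 at 0.00 and 0.04, and Sftpd at -0.39 and -0.37. In bulk libraries, fewer cells of a type and less RNA per cell cannot be told apart.

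**Figure D1:**
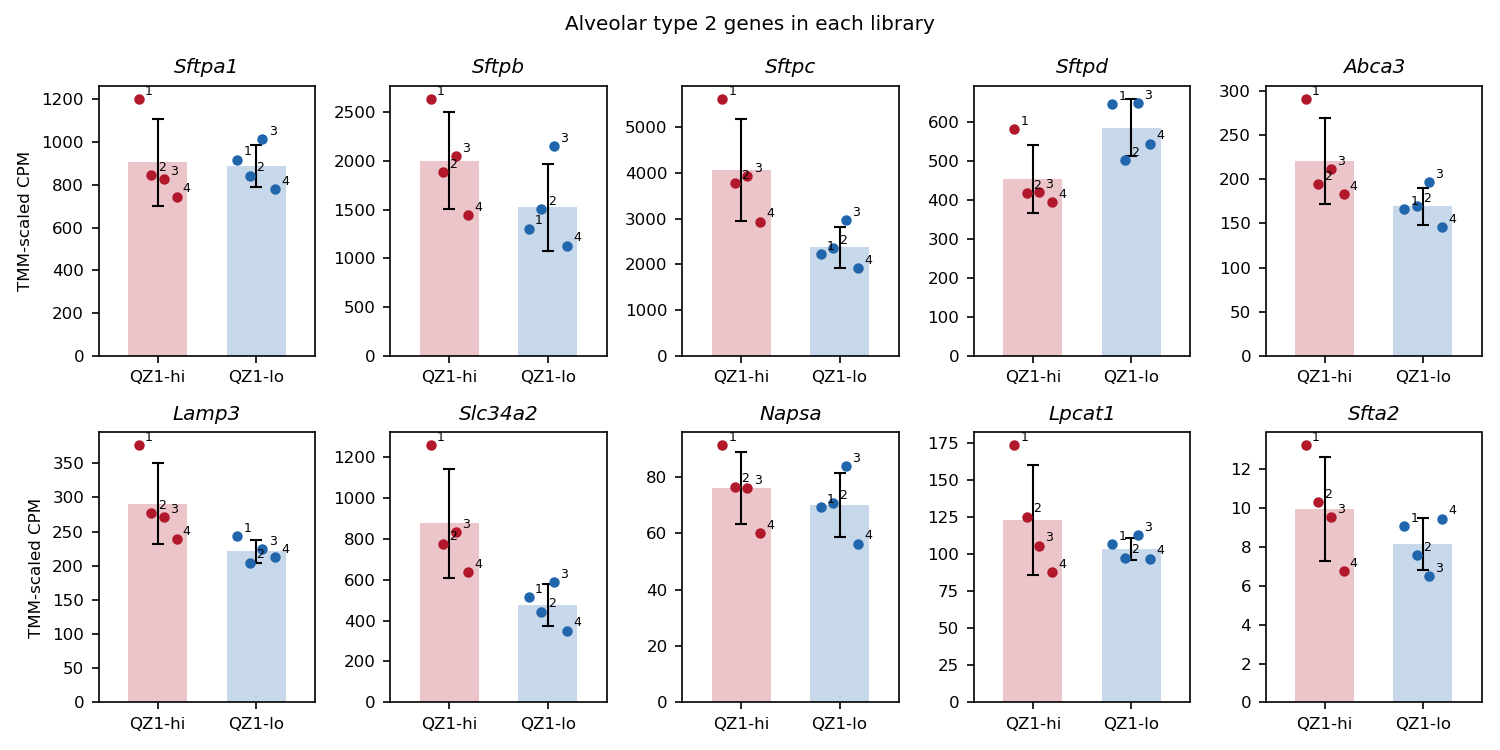
TMM-scaled CPM (y axis, from 0) of each of the 10 AT2 genes in the 4 QZ1-hi and 4 QZ1-lo libraries. Points are libraries with their number, bars are means and error bars are SD; QZ1-hi library 1 is the highest QZ1-hi point in every panel, and only Slc34a2 shows no overlap between the populations.

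Sftpc, which encodes the AT2-restricted hydrophobic protein SP-C (Entrez 20389, GRCm38.p6 chr14:70520941-70524081, minus strand), was the most abundant of the 10 genes. Its level was 5617, 3774, 3929 and 2935 CPM in QZ1-hi libraries 1 to 4 and 2233, 2365, 2971 and 1913 CPM in QZ1-lo libraries 1 to 4. In 3 of the 4 QZ1-hi libraries it lay above all QZ1-lo libraries, whereas QZ1-hi library 4 fell just short of QZ1-lo library 3. The QZ1-hi mean was 4064 ± 1124 CPM and the QZ1-lo mean 2371 ± 443 CPM (SD, n = 4 each), a ratio of 1.71. On the log2 scale the fitted difference was 0.78 (SE 0.21, edgeR adjusted p = 0.0231). Taken alone, the CPM values gave a two-sided exact permutation p = 0.0571, where 0.0286 is the smallest p that 4 against 4 libraries allow. The call was lost without QZ1-lo library 1 (0.75, adjusted p = 0.0618), library 2 (0.78, adjusted p = 0.0591) or library 4 (0.69, adjusted p = 0.0660), with the fold change close to its full value, and was also lost with scaling by library size only (0.37, adjusted p = 0.371).

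Sftpb, which encodes the hydrophobic protein SP-B that is required for lamellar body formation (Entrez 20388, chr6:72304610-72314373, plus strand), did not pass the threshold. It measured 2638, 1888, 2049 and 1442 CPM in QZ1-hi libraries 1 to 4 and 1307, 1508, 2158 and 1132 CPM in QZ1-lo libraries 1 to 4. The populations overlapped, with QZ1-lo library 3 above 3 of the QZ1-hi libraries. Its log2 fold change was 0.39 (SE 0.23, 95% interval -0.10 to 0.89, adjusted p = 0.290), and -0.02 with scaling by library size only.

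The collectin genes Sftpa1 and Sftpd did not follow Sftpc. Sftpa1, which encodes SP-A (Entrez 20387, chr14:41131788-41136373, plus strand), measured 1202, 847, 828 and 745 CPM in QZ1-hi libraries 1 to 4 and 918, 843, 1013 and 782 CPM in QZ1-lo libraries 1 to 4. QZ1-hi library 1 lay above and QZ1-hi library 4 below all QZ1-lo libraries, and the other QZ1-hi libraries lay within the QZ1-lo range. The log2 fold change was 0.03 (SE 0.16, 95% interval -0.33 to 0.38, adjusted p = 0.941). Its sign turned with scaling by library size only (-0.40), with QZ1-hi library 1 left out (-0.14) and with QZ1-lo library 4 left out (-0.03). Sftpd, which encodes SP-D and lies on the opposite strand close to Sftpa1 (Entrez 20390, chr14:41172212-41185198, minus strand), measured 581, 418, 420 and 394 CPM in QZ1-hi libraries 1 to 4 and 645, 501, 648 and 544 CPM in QZ1-lo libraries 1 to 4. Only QZ1-hi library 1 reached into the QZ1-lo range. Means were 453 ± 86.1 and 585 ± 73.8 CPM (SD, n = 4 each), and the log2 fold change of -0.37 (SE 0.15, 95% interval -0.70 to -0.03) did not pass after adjustment (adjusted p = 0.134). With QZ1-hi library 1 left out it passed (-0.51, adjusted p = 0.0281) and with scaling by library size only (-0.81, adjusted p = 0.0454).

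Slc34a2, a sodium-dependent phosphate transporter that takes up phosphate released in the alveolus (Entrez 20531, chr5:53049353-53071664, plus strand), was the member with the highest fold change. Its level was 1256, 774, 831 and 638 CPM in QZ1-hi libraries 1 to 4 and 516, 443, 588 and 351 CPM in QZ1-lo libraries 1 to 4. Every QZ1-hi library lay above every QZ1-lo library, an order found in 11.9% of all genes tested, and populations that did not overlap in either direction made up 22.6%. The other 9 AT2 genes overlapped. The Slc34a2 means were 875 ± 267 and 475 ± 102 CPM (SD, n = 4 each), a ratio of 1.84, with a fitted log2 difference of 0.88 (SE 0.22, adjusted p = 0.0165, two-sided exact permutation p = 0.0286). The call was lost without QZ1-lo library 2 (0.85, adjusted p = 0.0507) and with scaling by library size only (0.47, adjusted p = 0.279).

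The genes of the lamellar body had values above 0 that did not pass the threshold. Abca3, the transporter that loads phospholipids into lamellar bodies (Entrez 27410, chr17:24351921-24410204, plus strand), ranged from 183 to 291 CPM in QZ1-hi and from 145 to 197 CPM in QZ1-lo (log2 fold change 0.38, SE 0.16, adjusted p = 0.142). Lamp3, a membrane glycoprotein of lamellar bodies (Entrez 239739, chr16:19653381-19706365, minus strand), measured 376, 277, 272 and 239 CPM in QZ1-hi libraries 1 to 4 and 244, 205, 225 and 213 CPM in QZ1-lo libraries 1 to 4. QZ1-hi library 4 was the single QZ1-hi library below the highest QZ1-lo library (log2 fold change 0.39, SE 0.15, adjusted p = 0.0927). Lamp3 passed when QZ1-hi library 4 was left out (0.50, adjusted p = 0.0321). Abca3 and Lamp3 both came to -0.04 with scaling by library size only.

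The remaining genes overlapped between the populations and did not pass the threshold. Napsa, an aspartic protease that processes the SP-B precursor (Entrez 16541, chr7:44572445-44586846, plus strand), ranged from 60.0 to 91.2 CPM in QZ1-hi and from 56.3 to 83.9 CPM in QZ1-lo, with 1 QZ1-hi library above the QZ1-lo range (log2 fold change 0.12, SE 0.16, adjusted p = 0.695). Lpcat1, an acyltransferase that remodels phosphatidylcholine into its surfactant form (Entrez 210992, chr13:73467231-73516420, plus strand), ranged from 87.8 to 173 CPM and from 97.1 to 113 CPM, with 2 QZ1-hi libraries above and 1 below all QZ1-lo libraries (0.25, SE 0.19, adjusted p = 0.429). Sfta2, a small secreted surfactant-associated protein (Entrez 433102, chr17:35649708-35650569, plus strand), ranged from 6.73 to 13.2 CPM and from 6.51 to 9.45 CPM, with 3 QZ1-hi libraries above the QZ1-lo range (0.29, SE 0.24, adjusted p = 0.476). The 95% intervals of these log2 differences ran from -0.23 to 0.46 for Napsa, from -0.16 to 0.66 for Lpcat1 and from -0.23 to 0.81 for Sfta2. With scaling by library size only the values turned to -0.32 for Napsa, -0.16 for Lpcat1 and -0.12 for Sfta2. Of each gene's exonic stretches of 50 bases, 0 to 5.11% also occurred in another gene, with Lamp3 the highest. Exons of Abca3 and Napsa overlap a gene on the opposite strand, and since the strand setting of the counting is not given in the sources used here, those reads cannot be told apart.

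The bases upstream of the transcription start are shown for 3 members: Slc34a2, which was called higher, and Sftpb and Sftpa1, which did not pass. No test compared these genes with each other. The 95% intervals of Slc34a2 (0.40 to 1.36) and Sftpb (-0.10 to 0.89) overlap. Each window is the 250 bases before the RefSeq start on GRCm38.p6, in the direction of the gene: chr5:53049103-53049352 for Slc34a2, chr6:72304360-72304609 for Sftpb and chr14:41131538-41131787 for Sftpa1, all on the plus strand. Capitals mark matches, on either strand, to CTCAAG (a core bound by NKX2-1), TGTTTNC (forkhead, as bound by FOXA factors) or TTGCNNAA (C/EBP), and none of the marked matches overlap.
Slc34a2: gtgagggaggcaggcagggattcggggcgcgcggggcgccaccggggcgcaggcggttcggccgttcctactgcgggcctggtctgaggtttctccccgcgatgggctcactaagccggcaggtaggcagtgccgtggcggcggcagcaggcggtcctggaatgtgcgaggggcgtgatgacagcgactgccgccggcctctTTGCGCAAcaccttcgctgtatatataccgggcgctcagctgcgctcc
Sftpb: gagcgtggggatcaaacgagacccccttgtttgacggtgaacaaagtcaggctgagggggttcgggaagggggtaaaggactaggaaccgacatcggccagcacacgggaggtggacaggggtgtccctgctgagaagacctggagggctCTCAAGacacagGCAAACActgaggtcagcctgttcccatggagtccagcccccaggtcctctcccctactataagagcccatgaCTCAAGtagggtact
Sftpa1: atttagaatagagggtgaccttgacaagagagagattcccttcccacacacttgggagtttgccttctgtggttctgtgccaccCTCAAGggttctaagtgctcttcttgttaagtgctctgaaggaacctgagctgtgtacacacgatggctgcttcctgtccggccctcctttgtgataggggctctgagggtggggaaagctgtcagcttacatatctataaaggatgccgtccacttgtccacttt
The Sftpb window held CTCAAG 2 times, from 100 to 95 and from 15 to 10 bases upstream, and 1 forkhead match on the opposite strand between them. The Sftpa1 window held CTCAAG 1 time, from 166 to 161 bases upstream, and the Slc34a2 window held a palindromic C/EBP match from 48 to 41 bases upstream, which reads alike on both strands. Promoters were given for 7 of the 10 genes, and not for Sftpc, Sftpd and Napsa. Of these 7, 3 held CTCAAG, 2 the forkhead motif and 1 the C/EBP motif, and the windows of Abca3 and Lpcat1 held none. The shares among 32851 promoters of the same length were 13.3%, 17.8% and 9.56%, and 7 windows are too few to be compared with them. These matches describe the letters in the window and not binding.

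**Figure D2:**
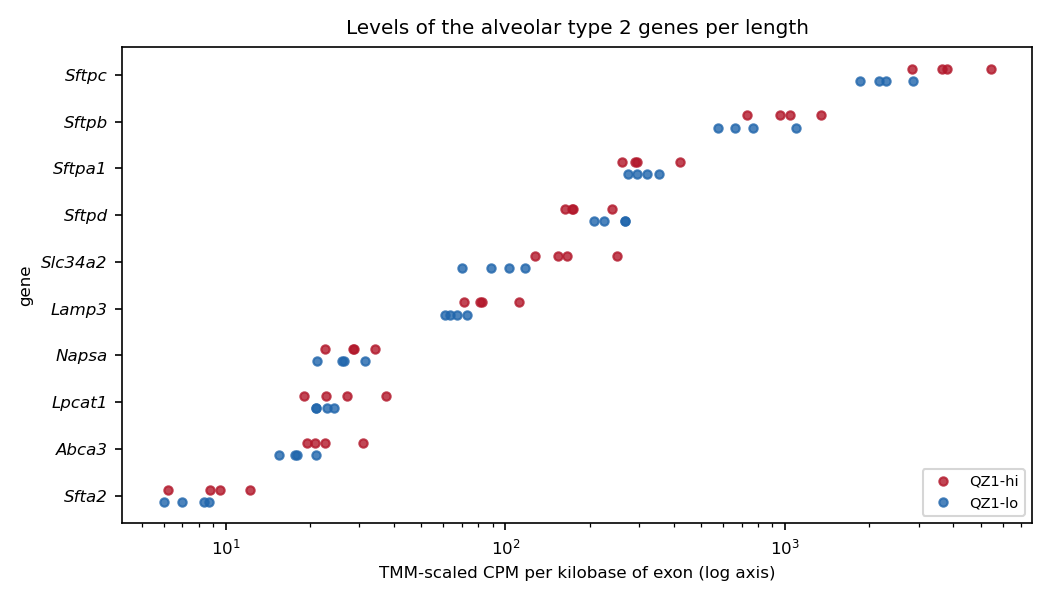
TMM-scaled CPM per kilobase of exon (log x axis) for each AT2 gene (y axis), with a point for every library of QZ1-hi and QZ1-lo. The genes span from Sfta2, with means of 9.17 and 7.51, to Sftpc, with means of 3930 and 2293, and their means stand in one order in both populations.

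Divided by exon length, which allows levels of different genes to be compared, the 10 genes stood in one order in both populations. Sftpc led with 3930 ± 1087 CPM per kb in QZ1-hi and 2293 ± 428 in QZ1-lo (SD, n = 4 each), followed by Sftpb with 1019 ± 251 and 775 ± 228, and Sftpa1 with 317 ± 70.9 and 311 ± 34.8. Sftpd (188 ± 35.6 and 242 ± 30.5) came next, then Slc34a2 (174 ± 53.2 and 94.7 ± 20.3) and Lamp3 (86.7 ± 17.7 and 66.0 ± 5.05). Napsa, Lpcat1 and Abca3 lay between 18.1 and 28.5 CPM per kb in the means of both populations, and Sfta2 was lowest with 9.17 ± 2.46 and 7.51 ± 1.25. Neighbors whose library ranges overlapped, and which therefore cannot be ordered, were Napsa with Lpcat1 and Lpcat1 with Abca3 in both populations, Sftpd with Slc34a2 in QZ1-hi, and Slc34a2 with Lamp3 in QZ1-lo.

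The share of Sftpc among the AT2 transcripts separated the populations, whereas the sum of the 10 genes did not. Sftpc made up 43.6 to 45.9% of the counts of the 10 genes in the 4 QZ1-hi libraries and 35.9 to 38.1% in the 4 QZ1-lo libraries, with no overlap. Sftpc was the most abundant of the 10 genes and was called higher, so its share is not a result separate from that call. The 10 genes together made up 2.38, 1.70, 1.71 and 1.29% of the counts outside mitochondrial genes and ribosomal RNA in QZ1-hi libraries 1 to 4 and 1.27, 1.29, 1.62 and 1.08% in QZ1-lo libraries 1 to 4, which overlap. Of all counts, the 10 genes made up 1.34, 0.632, 0.822 and 0.444% in QZ1-hi libraries 1 to 4. In QZ1-lo libraries 1 to 4 this share was 0.840, 0.601, 1.02 and 0.610%, again with overlap. The share of the 10 genes thus depends on the counts it is taken from. The share of Sftpc among the 10 genes and the ratios that follow do not depend on the scaling. All are given as descriptions, without a test.

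Set against Sftpc in the same library, 6 of the other 9 genes were lower in every QZ1-hi library than in any QZ1-lo library, none was higher and 3 overlapped. Over all genes, 32.6% had a ratio to Sftpc that was lower without overlap and 4.02% one that was higher. Sftpd differed most, with 0.103, 0.111, 0.107 and 0.134 Sftpd counts per Sftpc count in QZ1-hi libraries 1 to 4 and 0.289, 0.212, 0.218 and 0.284 in QZ1-lo libraries 1 to 4, a log2 difference of -1.13. Every QZ1-hi library held less Sftpd per Sftpc than any QZ1-lo library. Sftpa1 gave 0.211 to 0.254 in QZ1-hi and 0.341 to 0.411 in QZ1-lo (-0.75), and Sftpb 0.470 to 0.522 and 0.585 to 0.726 (-0.35). Napsa (-0.64), Lpcat1 (-0.55) and Abca3 (-0.39) were likewise lower without overlap. Slc34a2 per Sftpc overlapped, at 0.205 to 0.224 in QZ1-hi and 0.183 to 0.231 in QZ1-lo (0.11), and the ratios of Lamp3 (-0.38) and Sfta2 (-0.49) overlapped as well.

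**Figure D3:**
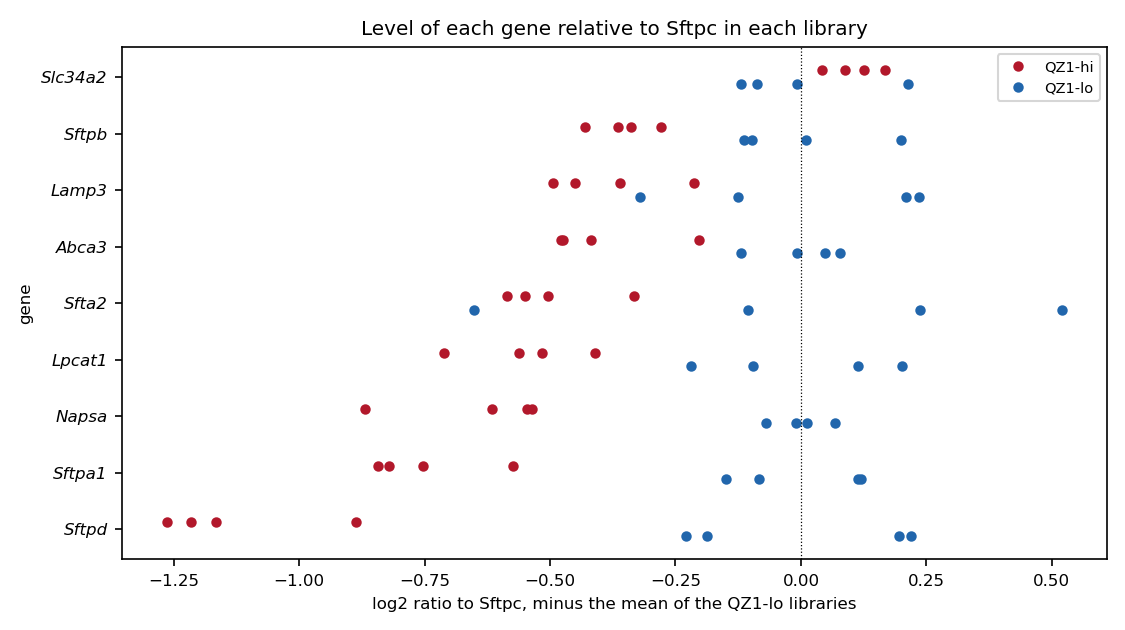
Log2 ratio of each AT2 gene to Sftpc, minus the mean of the QZ1-lo libraries (x axis), for each gene (y axis), with a point per library. QZ1-hi and QZ1-lo points are separate for Sftpd, Sftpa1, Napsa, Lpcat1, Abca3 and Sftpb and overlap for Sfta2, Lamp3 and Slc34a2.

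The AT2 genes ranked the libraries of a population alike. QZ1-hi library 1 was the highest and QZ1-hi library 4 the lowest of the QZ1-hi libraries for all 10 genes, an order found in 8.88% of all genes tested, and the highest library exceeded the lowest by 1.47 to 1.97 times. Among the QZ1-lo libraries, library 3 was highest for 8 genes and library 4 lowest for 7, and the share of all genes with that order was not computed. The order was not particular to the AT2 genes. Summed, 6 general epithelial markers gave 823, 813, 589 and 530 CPM in QZ1-hi libraries 1 to 4. In QZ1-lo libraries 1 to 4 they gave 1895, 1718, 2034 and 1471 CPM, with the same highest and lowest libraries. Other measures ran against this order within QZ1-hi. Library 1 had the lowest mitochondrial share of the QZ1-hi libraries (43.7%) and library 4 the highest (65.6%). The mean centered log2 CPM of 8 macrophage markers was -0.30 and 0.94 in the same libraries. In QZ1-lo the mitochondrial share did not follow the AT2 order, at 34.0, 53.2, 37.0 and 43.3% in libraries 1 to 4. The macrophage mean in QZ1-lo was lowest in library 3 (-0.68) and highest in library 4 (0.47). The macrophage markers summed to 524 to 1259 CPM in QZ1-hi and 383 to 860 CPM in QZ1-lo, and none of them was at 0 in all libraries of a population. The part of these measures in the order of the libraries was not tested. Centered over the 8 libraries, the mean log2 CPM of the AT2 genes was 0.59, 0.11, 0.10 and -0.20 in QZ1-hi libraries 1 to 4 and -0.11, -0.21, 0.04 and -0.33 in QZ1-lo libraries 1 to 4. The gene outside the list with the profile nearest to this mean over the 8 libraries was Dram1, a regulator of autophagy, with a root mean square difference of 0.0668 log2 units, followed by P4hb, a disulfide isomerase of the endoplasmic reticulum, with 0.0936. The 10 nearest genes reached 0.112, the median of 15573 other genes was 0.478, and the AT2 genes themselves lay between 0.0736 for Abca3 and 0.352 for Sftpd. Neither nearest gene passed the threshold, with log2 fold changes of 0.29 for Dram1 (adjusted p = 0.303) and 0.19 for P4hb (adjusted p = 0.419) that turned to -0.14 and -0.25 with scaling by library size only.

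**Figure D4:**
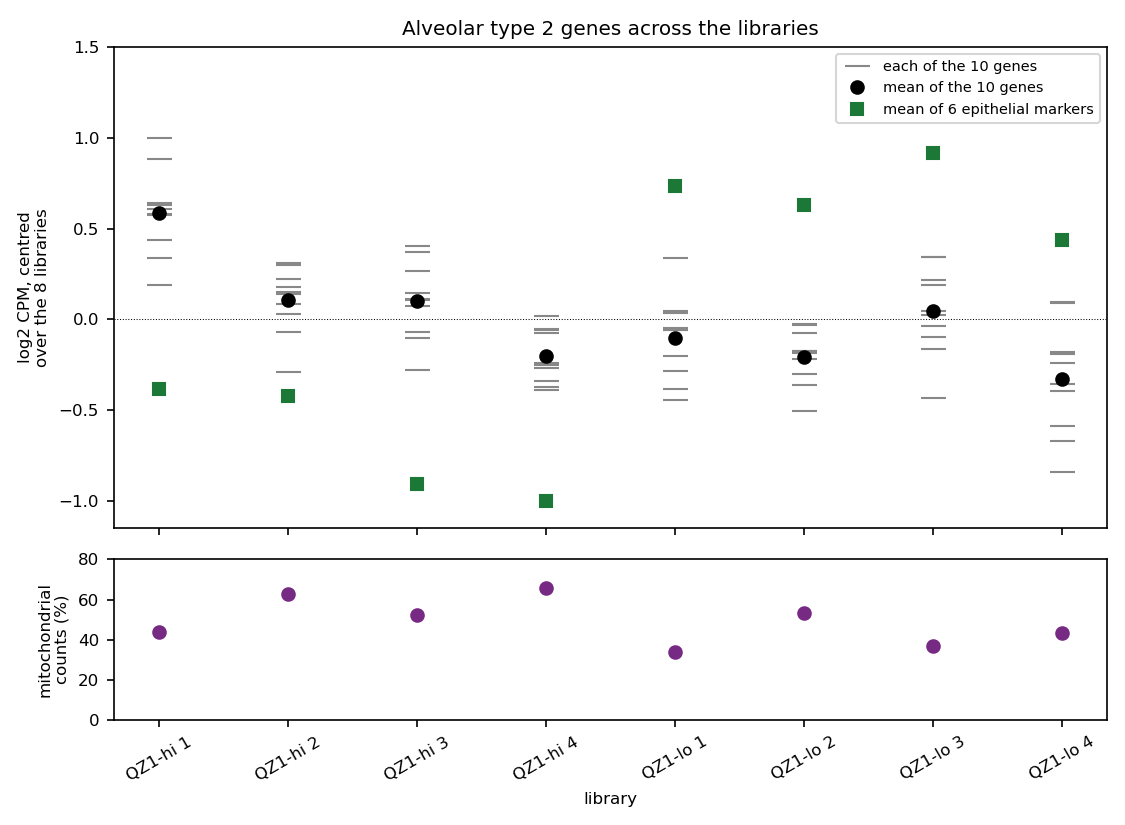
Top, log2 CPM centered over the 8 libraries (y axis) for each AT2 gene (grey dashes), their mean (black circles) and the mean of 6 epithelial markers (green squares) in each library (x axis); bottom, the percentage of counts from mitochondrial genes. The AT2 mean is 0.59 in QZ1-hi library 1 and -0.20 in QZ1-hi library 4, while the epithelial markers are below 0 in all QZ1-hi libraries and above 0 in all QZ1-lo libraries.

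General epithelial markers, in contrast to the AT2 genes, all fell in QZ1-hi. Epcam, the epithelial adhesion molecule against which the sort was gated, measured 77.4, 67.3, 45.2 and 45.1 CPM in QZ1-hi libraries 1 to 4 and 140, 122, 153 and 115 CPM in QZ1-lo libraries 1 to 4. The populations did not overlap (log2 fold change -1.17, SE 0.19, adjusted p = 0.0016). Cdh1, the gene of E-cadherin (-1.34), Krt8 (-1.50), Krt18 (-1.45) and Krt19 (-1.26), which encode keratins of simple epithelia, and the tight junction gene Cldn7 (-1.30) fell as well, so that 6 of 6 epithelial markers were called lower, with a median of -1.32. Sftpc per Epcam stood at 56.1 to 87.0 in QZ1-hi and 15.9 to 19.4 in QZ1-lo, and Slc34a2 per Epcam at 11.5 to 18.4 and 3.06 to 3.85. Sftpd, the one AT2 gene with a fold change below 0, was also higher per Epcam in every QZ1-hi library, at 6.21 to 9.30 against 4.11 to 4.75. These ratios also carry the fall of Epcam, and the share of all genes with such a ratio to Epcam was not computed. Epcam was taken as the reference after its values had been seen, and the sort itself used EpCAM.

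Of 7 transcription factors of surfactant genes, 4 fell in QZ1-hi and none rose, with a median log2 fold change of -0.90. Nkx2-1, the lung lineage factor that acts on the surfactant protein genes, measured 75.3, 57.8, 39.1 and 56.3 CPM in QZ1-hi libraries 1 to 4 and 112, 86.3, 118 and 108 CPM in QZ1-lo libraries 1 to 4. All QZ1-hi libraries lay below all QZ1-lo libraries (-0.90, SE 0.19, adjusted p = 0.0062). Sftpc per Nkx2-1 was 52.2 to 101 in QZ1-hi and 17.6 to 27.4 in QZ1-lo, a ratio that also carries the fall of Nkx2-1. The share of all genes with such a ratio to Nkx2-1 was not computed. The forkhead factors Foxa1 (-1.48, SE 0.23, adjusted p = 0.0014) and Foxa2 (-0.99, SE 0.23, adjusted p = 0.0112) and the Kruppel-like factor Klf5 (-1.33, SE 0.13, adjusted p = 0.0003) also fell, and these factors are expressed in airway epithelium too. Cebpa (0.19, SE 0.14, adjusted p = 0.415) and the FGF target Etv5 (0.33, SE 0.21, adjusted p = 0.334) did not pass, and came to -0.25 and -0.07 with scaling by library size only.

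Of 12 further genes high in AT2 cells, 2 rose, 1 fell and 9 did not pass, with a median of 0.35. Among all genes tested 9.88% were called higher and 8.21% lower, so these few calls do not set the list apart. Cxcl15, a lung epithelial chemokine, measured 1076, 775, 650 and 586 CPM in QZ1-hi libraries 1 to 4 and 373, 437, 425 and 342 CPM in QZ1-lo libraries 1 to 4. It rose without overlap (0.97, SE 0.19, adjusted p = 0.0042), as did Lgi3, a secreted leucine-rich protein (0.88, SE 0.19, adjusted p = 0.0090), although with scaling by library size only neither passed (0.57, adjusted p = 0.160 and 0.42, adjusted p = 0.289). S100g, a calcium-binding protein, fell (-1.16, SE 0.14, adjusted p = 0.0004). Ctsh, a cathepsin that takes part in processing the SP-B and SP-C precursors, was lower in every QZ1-hi library but did not pass (-0.36, SE 0.12, adjusted p = 0.0712); it passed without QZ1-hi library 1 (-0.44, adjusted p = 0.0381), by DESeq2 (-0.37, adjusted p = 0.0233), by limma (-0.33, adjusted p = 0.0432) and with scaling by library size only (-0.81, adjusted p = 0.0325) or by that scaling with mitochondrial and ribosomal RNA genes removed (-0.42, adjusted p = 0.0330). Lyz2, a lysozyme shared by AT2 cells and macrophages, was 0.51 (SE 0.28, adjusted p = 0.275) and was highest in QZ1-hi library 4, the library in which the AT2 genes were lowest among the QZ1-hi libraries.

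Few of the lipid synthesis and organelle genes on which surfactant depends were called. Of 18 enzymes and regulators of fatty acid and phosphatidylcholine synthesis, 1 rose, 2 fell and 15 did not pass, with a median of -0.02. The shares over all genes tested were 9.88% higher and 8.21% lower, so these calls do not set the lipid genes apart. Elovl1, a fatty acid elongase, rose (0.65, SE 0.14, adjusted p = 0.0067), a call lost with scaling by library size only (0.23, adjusted p = 0.542). Chka, a choline kinase at the start of phosphatidylcholine synthesis, fell (-0.77, SE 0.14, adjusted p = 0.0037), as did the acyltransferase Lpcat4 (-0.96, SE 0.27, adjusted p = 0.0276). The Lpcat4 call was lost with any of QZ1-hi libraries 1, 2 or 4 or QZ1-lo libraries 1, 2 or 3 left out, where its values were -0.995, -0.96, -0.75, -0.86, -0.94 and -0.92. Fasn, the fatty acid synthase, had a value of 0.58 (SE 0.20, adjusted p = 0.0703) that passed without QZ1-hi library 4 (0.72, adjusted p = 0.0214), by DESeq2 (0.57, adjusted p = 0.0302) and by limma (0.59, adjusted p = 0.0309). Of 12 genes of lysosome-related organelle biogenesis, among them the Hermansky-Pudlak syndrome genes, none was called in either direction, with a median of 0.07.

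**Figure D5:**
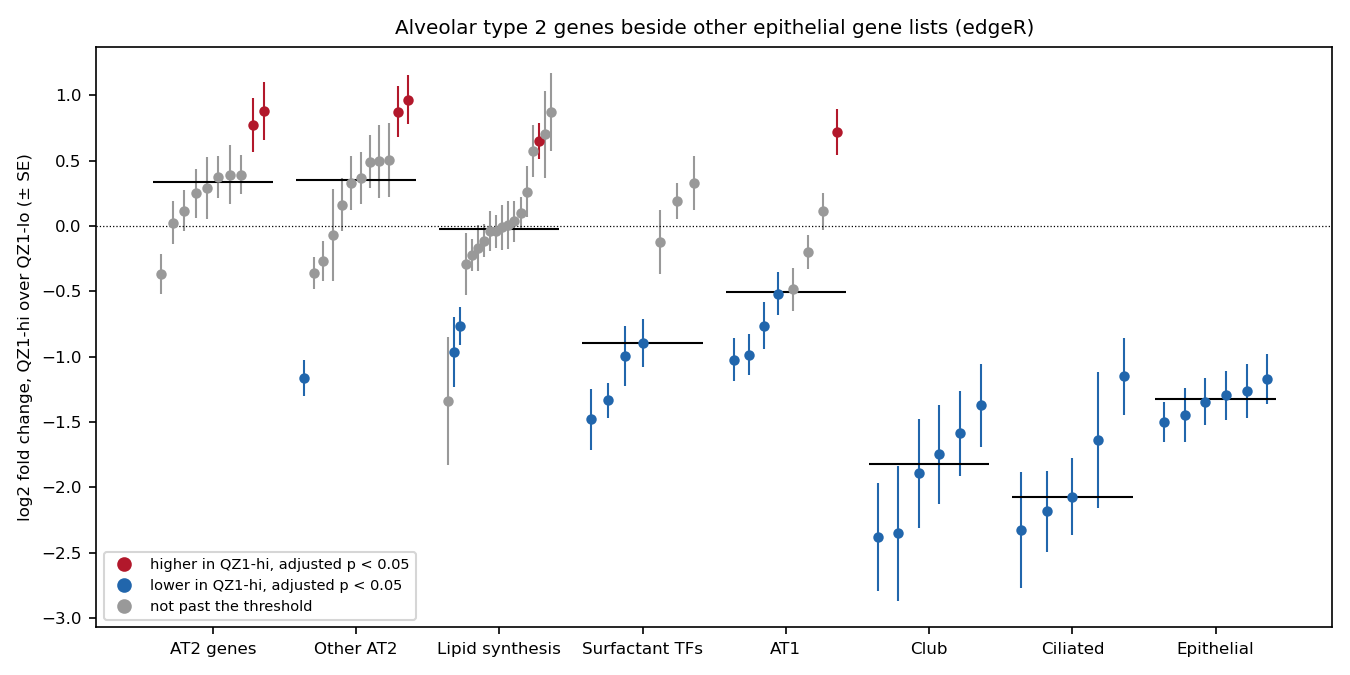
Log2 fold change of QZ1-hi over QZ1-lo with its SE (y axis) for every tested gene of 8 epithelial gene lists (x axis), colored by edgeR call, with the list median as a horizontal line. The medians are 0.33 for the 10 AT2 genes, -0.90 for the surfactant transcription factors (TFs), -1.82 for club, -2.07 for ciliated and -1.32 for general epithelial markers.

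Markers of airway epithelium were lower in QZ1-hi than in QZ1-lo. All 6 club cell markers fell, with a median of -1.82 and summed levels of 364 to 1092 CPM in QZ1-hi and 1555 to 4248 CPM in QZ1-lo, led by Scgb1a1, the club cell secretory protein (-2.38, SE 0.41, adjusted p = 0.0023). All 5 ciliated cell markers fell, with a median of -2.07 and Foxj1, the master regulator of motile cilia, at -2.07 (SE 0.30, adjusted p = 0.0008). Club cells share Sftpa1, Sftpb and Sftpd with AT2 cells, and the part of club cell RNA in the levels of these genes was not tested. Of 8 alveolar type 1 (AT1) markers, 4 fell, among them Ager (-0.76), Aqp5 (-0.98) and Rtkn2 (-1.02), and 1 rose, Pdpn (0.72, SE 0.18, adjusted p = 0.0157), a glycoprotein also found on lymphatic endothelium and fibroblasts, which was lost without QZ1-hi library 2 (0.58, adjusted p = 0.0525) and with scaling by library size only (0.26, adjusted p = 0.512).

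Non-epithelial markers were present beside the AT2 genes in both populations. Of 10 endothelial markers, 9 rose in QZ1-hi, with a median of 3.43 and summed levels of 1551 to 3331 CPM against 187 to 482 CPM, and of 6 pericyte and 7 fibroblast markers 4 and 6 rose. None of 8 macrophage markers was called in either direction, with a median of 0.27. Dendritic cells, which also express Lamp3, carry CD45, and the gate was set to leave out CD45-positive cells. Ptprc, the gene of CD45, was still present, at 71.4 to 222 CPM in QZ1-hi and 93.4 to 161 CPM in QZ1-lo. Itgam, the gene of CD11b, measured 29.4 to 54.8 CPM in QZ1-hi and 42.4 to 50.4 CPM in QZ1-lo. Of 5 dendritic cell markers tested, out of 6 listed, 1 rose and 2 fell, and no listed marker was at 0 in all libraries of a population. Their summed level was 111 to 258 CPM in QZ1-hi and 74.9 to 193 CPM in QZ1-lo, most of it Itgax, an integrin shared with macrophages (91.4 to 242 and 64.4 to 165 CPM, log2 fold change 0.40, adjusted p = 0.466, and -0.13 with scaling by library size only). The cytokine receptor Flt3 fell (0.173 to 0.932 CPM in QZ1-hi and 1.41 to 10.8 CPM in QZ1-lo, -2.91, adjusted p = 0.0148). Its lowest value, in QZ1-hi library 3, stood at the floor of 3 counts. The Flt3 call was lost without QZ1-lo library 2 (-2.07, adjusted p = 0.0690) and held in 14 of 16 alternatives. Ccr7, the chemokine receptor of mature dendritic cells, fell (3.53 to 6.06 and 2.97 to 38.8 CPM, -1.99, adjusted p = 0.0331). The Ccr7 call was lost without any 1 of the 4 QZ1-hi libraries or QZ1-lo library 2 or 4, where its values were -2.16 to -1.31. It held in 9 of 17 alternatives, among them 2 of the 8 fits with a library left out. Zbtb46, a transcription factor also found in endothelium, rose (1.31, adjusted p = 0.0170), a call lost without QZ1-hi library 1 (1.10, adjusted p = 0.0536) or library 3 (1.20, adjusted p = 0.0521) and with scaling by library size only (0.97, adjusted p = 0.0623). Lamp3 itself stood at 239 to 376 CPM in QZ1-hi and 205 to 244 CPM in QZ1-lo, and the part of dendritic cells in its level was not tested. The 10 AT2 genes summed to 6730 to 12239 CPM in QZ1-hi and 5243 to 8003 CPM in QZ1-lo.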

How the data were processed

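RNA from QZ1-hi and QZ1-lo cells was measured in 4 libraries each. The authors made the libraries with a stranded SMARTer total RNA kit, used a NextSeq500 for sequencing and obtained gene counts from Rsubread. The deposited values are raw counts per gene, not normalized, for 27179 Entrez identifiers, of which 25275 were given a symbol and 1904 were not. The submitters' processing notes name mm10 and DESeq2, and the aligner, annotation and strand setting are not given in the sources used here. Totals were 18380918 to 26847938 counts per library.

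The counts were fitted with edgeR 4.0.16 (R 4.3.3) after TMM scaling, and the filterByExpr filter (minimum count 10, minimum total count 15), by the quasi-likelihood test over 15583 genes, with Benjamini-Hochberg adjustment and a threshold of 0.05. To obtain an SE, each absolute log2 fold change was divided by the root of its F statistic. Single genes were also tested on CPM by exact permutation, two-sided, with all 70 assignments enumerated. Exon lengths, strands, exon overlaps and shared 50-base stretches came from GRCm38.p6 with GENCODE M21. Gene coordinates and promoters came from RefSeq on the same assembly. For profile distances, log2 CPM was taken with a prior count of 2.

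The AT2 genes and the gene lists were chosen with earlier results of these data known. Genes named in the text are the 10 members, genes of the lists, the genes of the sorting antibodies and the 10 genes with the nearest profile. Which of these are described was settled after their values were seen.

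The alternatives were DESeq2 1.42.0 (Wald test), limma 3.58.1 (voom with quality weights), DESeq2 size factors, scaling by library size only, no filter, a minimum of 10 counts per library, robust shrinkage, removal of mitochondrial and ribosomal RNA genes, a threshold of 0.01 and leaving out each library. Scaling by library size with mitochondrial and ribosomal RNA genes removed, the ratios with a library left out and the ratios to Epcam and Nkx2-1 were chosen after seeing the data. Imaging, staining and single-cell experiments of the study were not analysed here.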

Additional observations from a re-analysis of the deposited data

Results flagged for a closer look

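Of 90 groups of 4 libraries examined, 5 held a library that stood apart from the other 3 by Dixon's test on the gap to the nearest neighbor, and chance alone gives about 1 such group in 20. Among the AT2 genes this was Sftpd, at 581 CPM in QZ1-hi library 1 beside 394 to 420 CPM in the other QZ1-hi libraries. Foxa1 was at 53.8 CPM in QZ1-lo library 3, beside values from 34.0 to 35.2 CPM in the rest of QZ1-lo. Lgi3 was at 38.6 CPM in the same library, beside 24.2 to 25.5 CPM. Scgb1a1 was at 796 CPM in QZ1-hi library 2, beside 268 to 301 CPM in the other QZ1-hi libraries. Lyz2 was at 5763 CPM in QZ1-hi library 4, beside 2696 to 3122 CPM.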

How the results depend on the processing

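The main test called 1540 genes higher and 1280 lower, and 2 AT2 genes higher and 0 lower. Scaling by library size only gave 882 higher and 2509 lower, with 0 AT2 genes higher and 1 lower (Sftpd), and an adjusted p under 0.01 gave 902 and 665, with 0 AT2 genes in either direction. Scaling by library size with mitochondrial and ribosomal RNA genes removed gave 1386 and 1470, with 2 and 0. With each library left out, the counts were 1136 to 1506 higher and 938 to 1201 lower, and 0 to 3 AT2 genes higher and 0 to 1 lower. The AT2 count higher was 1 without QZ1-lo library 1 or 4, 0 without QZ1-lo library 2 and 3 without QZ1-hi library 4, and the 1 lower came without QZ1-hi library 1. Scaling by library size only turned the sign of Sftpa1 (-0.40), Sftpb (-0.019), Abca3 (-0.040), Lamp3 (-0.036), Napsa (-0.32), Lpcat1 (-0.16), Sfta2 (-0.12), Cebpa (-0.25), Etv5 (-0.069), Lyz2 (-0.015), Itgax (-0.133), Dram1 (-0.14) and P4hb (-0.25), and moved the median of all genes from 0.02 to -0.44. Sftpa1 also turned with mitochondrial and ribosomal RNA genes removed from that scaling (-0.033), and ranged from -0.14 to 0.14 with each library left out. Sftpc was called in 13 of 17 alternatives and Slc34a2 in 15 of 17, and with each library left out their log2 fold changes were 0.58 to 0.93 and 0.66 to 1.04. No ratio to Sftpc turned its direction with any library left out. No paired analysis was possible because the labels give no replicate numbers and tie no libraries of the 2 populations to one mouse; neighboring accessions or library identifiers were not read as pairs. The SE of 0.15 to 0.24 limits which differences between the populations could be called. The cause of these dependences was not tested.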
